A study of Mus musculus with 48 samples.

Results

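GABA-A receptors are chloride channels that open when the inhibitory transmitter GABA binds. The genes described here are 7 of their subunits: Gabra2, Gabra3, Gabra4 and Gabra5 (alpha subunits), Gabrb1 and Gabrb2 (beta subunits) and Gabrd (the delta subunit). They were chosen by gene symbol, and all 7 were found among the 48869 Ensembl gene IDs of the RNA count files. Control mice were set against mice with a conditional knockout (cKO) of Setd1b, which encodes an enzyme that places methyl groups on lysine 4 of histone H3. All animals were C57BL/6J adults of 4 to 6 months. The Cre line, the part of Setd1b that was deleted and any allele that the controls carried are not given in the sources used here.

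The 48 libraries came from the hippocampal CA region. RNA was sequenced from CA neurons, in 3 cKO and 3 control libraries with 55.7 to 69.1 M counted reads each, and from whole CA tissue, in 6 cKO and 6 control libraries with 14.9 to 20.1 M. Chromatin immunoprecipitation (ChIP) was made from sorted neuronal nuclei and gave 30 peak lists for 4 histone marks. H3K4me3 and H3K4me1 had 4 libraries per genotype, H3K27ac 4 cKO and 3 control, and H3K9ac 3 cKO and 4 control. The labels do not say whether replicates were separate animals, so p-values measure only the spread between these libraries.

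A GABA-A receptor is a ring of 5 subunits, usually alpha and beta subunits together with a gamma or delta subunit, and the alpha subunit sets much of where the receptor sits and which drugs act on it. Alpha5 receptors are abundant on hippocampal pyramidal cells, where many lie outside synapses and carry a steady, tonic inhibition. Delta receptors are also mostly outside synapses and, in the forebrain, commonly pair with alpha4. On mm10, Gabra2 (chr5:70958392-71095849), Gabra4 (chr5:71569734-71658308) and Gabrb1 (chr5:71657921-72149572) are neighbours, and Gabra5 spans chr7:57407669-57591016, Gabra3 chrX:72432676-72656919, Gabrb2 chr11:42419515-42632591 and Gabrd chr4:155384979-155398098. H3K4me3 marks the starts of active genes, and the enzyme complex that contains SETD1B carries CXXC1, a protein that binds unmethylated CG dinucleotides.

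The sequences below are the 250 bases before 3 annotated starts, from RefSeq on GRCm38.p6, the same assembly as mm10. Gabra2 and Gabra5 are shown because their H3K4me3 regions differed most between the groups, and Gabra3 because its region was the one not called. Each reads 5′ to 3′ on the gene's minus strand, and capitals mark every CG, a motif that reads the same on both strands. The windows are chr5:71095850-71096099 for Gabra2, chr7:57510060-57510309 for Gabra5 and chrX:72656808-72657057 for Gabra3.
Gabra2: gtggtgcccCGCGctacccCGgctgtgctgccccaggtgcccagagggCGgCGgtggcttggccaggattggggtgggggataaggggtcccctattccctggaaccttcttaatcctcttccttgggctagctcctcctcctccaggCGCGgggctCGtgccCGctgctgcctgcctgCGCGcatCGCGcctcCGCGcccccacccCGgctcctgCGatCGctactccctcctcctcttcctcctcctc
Gabra5: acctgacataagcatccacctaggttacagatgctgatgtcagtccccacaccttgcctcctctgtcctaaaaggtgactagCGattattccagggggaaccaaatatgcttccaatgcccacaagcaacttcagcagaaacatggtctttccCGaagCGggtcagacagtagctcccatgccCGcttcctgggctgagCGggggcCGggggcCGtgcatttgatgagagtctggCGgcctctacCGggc
Gabra3: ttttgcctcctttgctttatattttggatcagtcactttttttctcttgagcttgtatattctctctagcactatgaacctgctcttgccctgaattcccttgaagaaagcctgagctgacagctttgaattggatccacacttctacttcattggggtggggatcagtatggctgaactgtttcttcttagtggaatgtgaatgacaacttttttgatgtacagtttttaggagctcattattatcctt
The Gabra2 window held 18 CG, and 21.7% of 32851 RefSeq windows of the same length held at least as many. The Gabra5 window held 9, a number reached by 40.3% of windows. The Gabra3 window held 0, against a median of 6 over all windows. The H3K4me3 peak of every library began 17 to 184 bp inside the gene from this Gabra3 start, so it did not reach the window. The windows before the starts of Gabra4 and the outer start of Gabrb1 held 12 and 18. The inner Gabrb1 window held 6, at the median, and the 3 Gabrb2 windows held 8, 8 and 4. Of the 7 genes, 6 were matched in the promoter table, all but Gabrd. The outer Gabra5 start and the outermost Gabrb2 start were not in it, so no window was counted there. Whether CG number bears on the H3K4me3 differences was not tested. These counts are a description of the letters in the windows.

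The labels were checked against Setd1b itself. Its whole-gene level in neuron RNA was 60.2, 62.0 and 71.6 CPM (read counts scaled to a common library size) in libraries labelled cKO and 65.5, 50.2 and 47.8 in those labelled control. The cKO level was the higher one in whole CA RNA (log2 fold change 0.59, edgeR quasi-likelihood test, SE 0.11, adjusted p = 0.00415). A count over the gene as a whole does not show which part was deleted, so the labels were used as given and all directions below are those of libraries labelled cKO against libraries labelled control.

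Lists of marker genes described the makeup of each material. In neuron RNA the summed level of 6 astrocyte markers was 27.1 to 34.4 CPM and that of 6 oligodendrocyte markers 121 to 143 CPM, while in whole CA RNA these sums were 1357 to 1755 and 3924 to 5832 CPM. Summed over the 7 interneuron markers, levels overlapped between genotypes in both materials. The sums were 521 to 675 CPM (cKO) and 523 to 619 CPM (control) in neuron RNA. In whole CA RNA they were 802 to 896 CPM (cKO) and 789 to 999 CPM (control). Of these markers, Sst did not overlap in neuron RNA, at 69.6 to 75.6 CPM (cKO) and 78.3 to 83.6 CPM (control). It was not called, and 12.4% of genes separated in this direction.

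Gabra5 RNA was lower in libraries labelled cKO in both materials, and it was the only member called in either. Calls required an adjusted p under 0.05 (Benjamini-Hochberg, over every gene tested). Counts at an unadjusted p under 0.05, given further below, are a description, since the share over all genes or regions was not counted. Of the 7 members, 1 was called in neuron RNA, where 2.75% of 19622 genes were called in either direction, and 1 in whole CA RNA, where 4.17% of 15362 were. The medians of the members' log2 fold changes were 0.04 (neuron) and 0.01 (whole CA), beside 0.02 and -0.003 over all genes. All 7 members passed the filter on low counts in both materials, with 205 reads or more in every library.

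In neuron RNA, Gabra5 was at 134, 134 and 124 CPM in the cKO libraries and at 157, 189 and 178 CPM in the controls. Every cKO library lay below every control library, a separation that 12.4% of genes showed in this direction. Its level fell by 25.3% (log2 fold change -0.42, SE 0.09, n = 3 and 3; adjusted p = 0.0480 by edgeR's quasi-likelihood test). That call lay close to the threshold. It was lost, at adjusted p of 0.126 to 0.166, when cKO replicate 1, 2 or 3 or control replicate 2 or 3 was left out, and held at 0.0125 without control replicate 1.

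In whole CA RNA, Gabra5 ranged from 183 to 215 CPM in the cKO libraries with a median of 196, and from 216 to 269 CPM with a median of 254 in the controls. The groups did not overlap, a separation in this direction shown by 1.93% of genes, although the highest cKO library and the lowest control library were nearly equal. The level fell by 21.9% (log2 fold change -0.36, SE 0.06, n = 6 and 6, edgeR, adjusted p = 0.000822). File names give 2 sequencing lanes, each with 3 libraries per genotype. Within the lane of replicates 1 to 3 the log2 fold change was -0.23 (adjusted p = 0.244), and the lane of replicates 4 to 6 gave -0.48 (adjusted p = 0.00500). In bulk RNA, fewer cells of a type and less RNA per cell cannot be told apart.

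**Figure D1:**
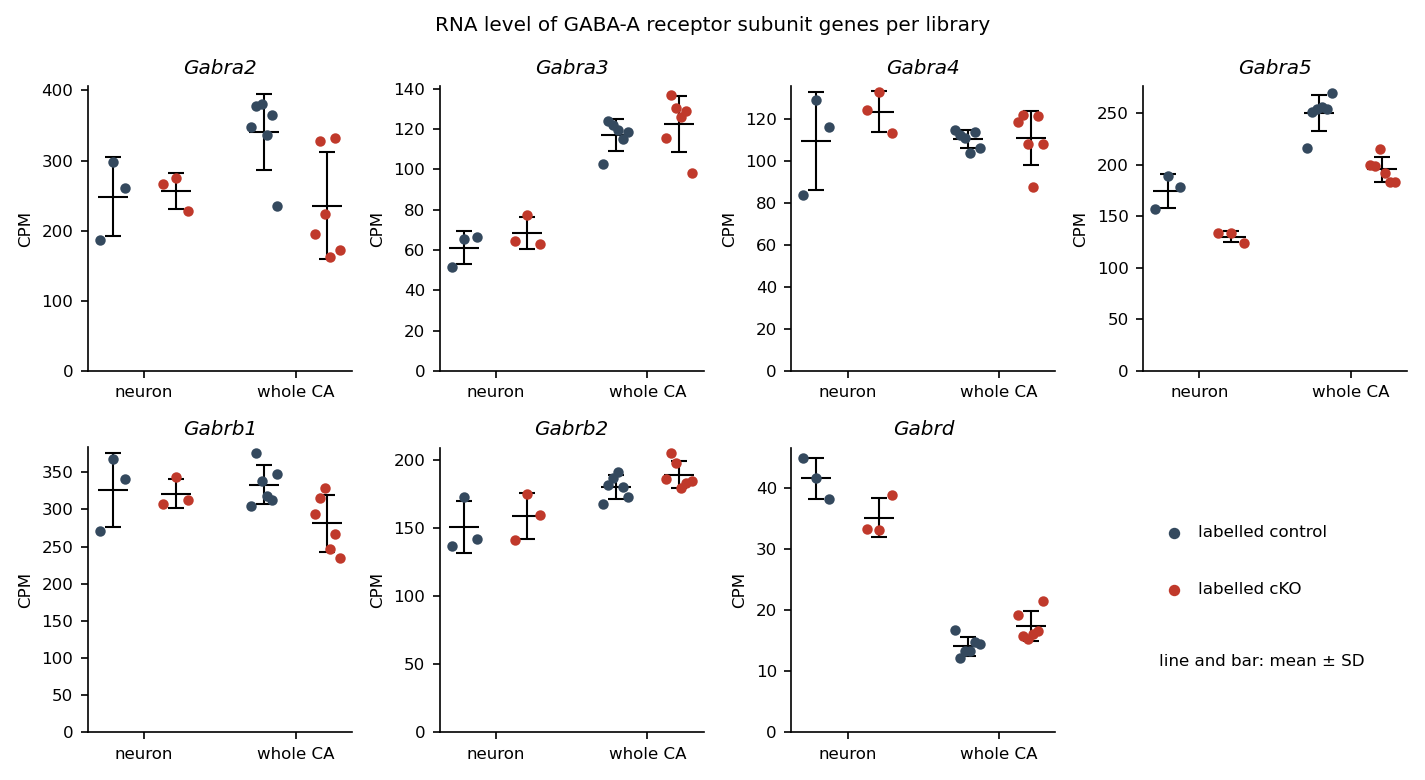
RNA level of each subunit gene in CPM (y axis) for every library, grouped by material (x axis) and genotype, with the mean and SD. Gabra5 is the gene whose cKO points lie below all control points in both materials, at 124 to 134 CPM against 157 to 189 CPM in neuron RNA.

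Marker lists of other cells and of hippocampal subfields differed between the same libraries to varying degrees. Of 5 excitatory neuron markers 1 was called lower in each material, the transcription factor Neurod6, with log2 fold changes of -2.24 (neuron RNA) and -1.78 (whole CA RNA). The other 4 were not called, and Slc17a7, Rbfox3 and Snap25 had positive whole CA values of 0.16, 0.13 and 0.03. The median of the list was -0.15 in neurons and 0.03 in whole CA. Its sums were 3491 to 3806 CPM (cKO) and 3826 to 4002 CPM (control) in neurons, which did not overlap, and 8833 to 10798 CPM and 9563 to 10547 CPM in whole CA, which did. Of 6 CA2 and CA3 markers, 1 was called lower in neurons (sums of 222 to 245 CPM in cKO libraries and 266 to 309 CPM in controls) and 4 in whole CA (236 to 297 CPM and 304 to 344 CPM). Of 4 CA1 markers, 1, Wfs1, was called lower in each, with log2 fold changes of -1.11 (neuron RNA) and -0.43 (whole CA RNA). The CA1 sums were 515 to 587 CPM (cKO) and 617 to 707 CPM (control) in neuron RNA. In whole CA they were 736 to 816 CPM (cKO) and 736 to 811 CPM (control). The other CA1 markers were not called. Fibcd1, Mpped1 and Pou3f1 had log2 fold changes of -0.08, -0.08 and -0.24 in neurons and 0.08, 0.07 and -0.05 in whole CA. Dentate granule markers summed to 134 to 170 CPM (cKO) and 177 to 205 CPM (control) in neuron RNA, with 3 of 5 called lower, and to 36.4 to 86.0 CPM and 63.5 to 95.7 CPM in whole CA, with 1 of 5. Thalamic neuron markers, of which 1 of 4 (Prkcd) was called lower in each material, had sums that did not overlap. They were 24.6 to 33.7 CPM (cKO) and 37.2 to 50.1 CPM (control) in neurons, 39.1 to 50.2 CPM and 53.9 to 78.8 CPM in whole CA. In neurons Zic1 and Tcf7l2 had positive log2 fold changes (0.66 and 0.16), at cKO means of 0.69 and 0.18 CPM, and Slc17a6 had -0.44. None of these 3 was called, and in whole CA all 4 thalamic markers had negative values. All 6 microglial markers had negative whole CA fold changes, 4 with an unadjusted p under 0.05 and 1 (Cx3cr1) called, and the sums of 239 to 262 CPM (cKO) and 268 to 326 CPM (control) did not overlap. In neurons 0 of the 6 were called by edgeR and 0 had an unadjusted p under 0.05, with sums of 9.85 to 11 CPM and 11.2 to 11.7 CPM that did not overlap. All 6 astrocyte markers also had negative whole CA fold changes, with 1 (Aqp4) called and overlapping sums of 1357 to 1514 CPM and 1472 to 1755 CPM. Of the endothelial markers 1 (Kdr) was called lower in each material. Neuron RNA tested 3 of the 5, with sums of 4.55 to 5.12 CPM (cKO) and 6.31 to 7.05 CPM (control). Most of that was Kdr, at 3.80 to 4.24 CPM and 5.51 to 6.17 CPM. The whole CA sums of 139 to 155 CPM and 151 to 177 CPM overlapped. There Pecam1, Cdh5, Cldn5 and Flt1 were not called, with log2 fold changes of 0.01, -0.01, -0.11 and -0.14. The part of these marker lists in the Gabra5 result was not tested.

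The other alpha subunits were not called in either material. Gabra2, an alpha subunit found at synapses on the cell body and axon initial segment, was at 266, 276 and 227 CPM in neuron cKO libraries and at 187, 298 and 261 CPM in neuron controls, a full overlap. Its whole CA median was 210 CPM in cKO libraries (range 162 to 332) and 356 CPM in controls (range 236 to 380). The cKO libraries split widely, with replicates 2 and 5 at 327 and 332 CPM and the other 4 at 162 to 224 CPM. The groups differed by -0.53 on the log2 scale (SE 0.16, adjusted p = 0.0797 by edgeR), which did not pass the threshold. It did pass, at adjusted p of 0.0275, 0.0208 and 0.0364, without cKO replicate 2, cKO replicate 5 or control replicate 6, and at 0.00388 with no filter on low counts. A fit with replicate number as a block also called it. Kctd12, an auxiliary subunit of the GABA-B receptor that also was not called, had a similar whole CA spread, from 24 to 59.1 CPM in cKO libraries.

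Gabra3 and Gabra4 showed overlapping groups in both materials. Gabra3 was at 63.2 to 77.4 CPM in neuron cKO libraries and 51.8 to 66.3 CPM in neuron controls, and its log2 fold changes were 0.16 (SE 0.12) and 0.07 (SE 0.07) in neuron and whole CA RNA. Gabra4 was at 113 to 133 CPM and 83.7 to 129 CPM in neuron RNA, with log2 fold changes of 0.17 (SE 0.15) and 0.01 (SE 0.07). Gabra4 and Gabrb1 lie head to head, with annotated spans that overlap by 388 bp, and whether counting used strand is not given in the sources used here, so reads from the overlap could not be assigned with certainty.

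The beta subunits, which every common receptor form contains, also did not pass the threshold. Gabrb1 was at 307, 343 and 313 CPM in neuron cKO libraries and at 271, 367 and 341 CPM in neuron controls (log2 fold change -0.02, SE 0.12). Its whole CA median was 280 CPM in cKO libraries (range 235 to 329) and 329 CPM in controls (range 305 to 376), which is -0.25 as log2 fold change (SE 0.08; adjusted p = 0.0988 by edgeR). The whole CA value was -0.12 in the lane of replicates 1 to 3 and -0.38 in that of replicates 4 to 6 (adjusted p = 0.0354), and with lane as a covariate it was called (adjusted p = 0.0322). It was also called without cKO replicate 3 (adjusted p = 0.0308) and with replicate number as a block. Gabrb2, the beta subunit of many synaptic receptors, had log2 fold changes of 0.07 in both materials (SE 0.12 and 0.05).

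Gabrd was at 33.4, 33.2 and 38.9 CPM in neuron cKO libraries and at 45.0, 41.7 and 38.3 CPM in neuron controls. The cKO library at 38.9 CPM lay just above the lowest control, so the groups overlapped, and the log2 fold change of -0.24 (SE 0.10) did not pass (edgeR, adjusted p = 0.255). The whole CA value was opposite in sign, 0.30 (SE 0.10, adjusted p = 0.107), with cKO libraries at 15.3 to 21.5 CPM and controls at 12.1 to 16.7 CPM. Without control replicate 1 the whole CA value was 0.36 and passed (adjusted p = 0.0491). The whole CA value also passed with replicate number as a block. The difference of the log2 fold changes between materials was -0.54 (SE 0.15) with an unadjusted p of 0.00146 and an adjusted p of 0.290 over 17523 genes, so it did not pass. For that interaction 0.160% of genes were called by edgeR and 0 members were, 2 members (Gabrd and Gabra2) had an unadjusted p under 0.05, and DESeq2 also called 0.

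**Figure D2:**
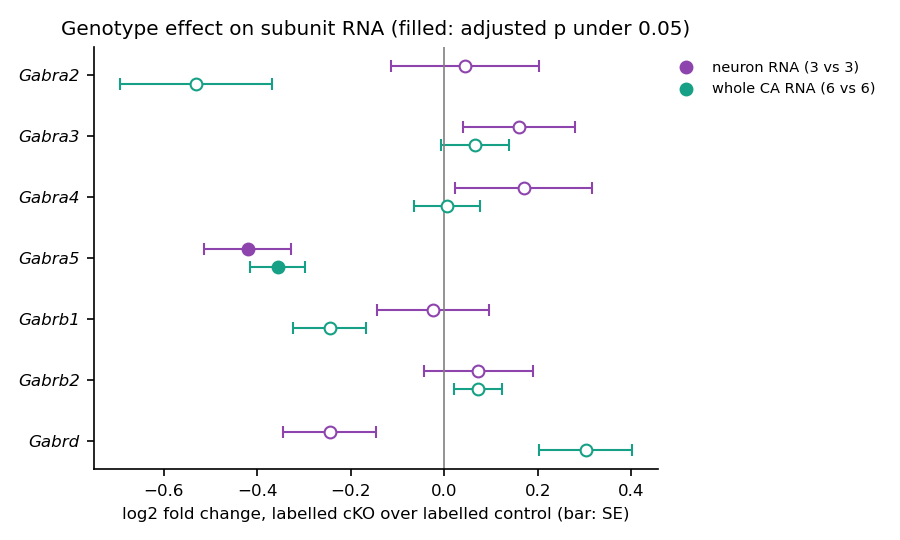
Log2 fold change of each subunit gene (x axis, libraries labelled cKO over control, bar: SE) in neuron and whole CA RNA, with filled points at an adjusted p under 0.05. Gabra5 is the gene with filled points in both materials, and Gabrd lies at -0.24 and 0.30 on opposite sides of 0.

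Control libraries of the 2 materials were set side by side on shared scaling factors, as a description. Gabra3, Gabra5 and Gabrb2 were lower in every neuron control than in every whole CA control, a separation seen for 36.6% of genes, and Gabrd was higher, as were 39.5% of genes. Gabrd was at 35.3 to 41.8 CPM in neuron controls and at 12.6 to 17.3 CPM in whole CA controls. Gabra3 was at 48.1 to 61.1 CPM and 106 to 129 CPM. Gabra2, Gabra4 and Gabrb1 overlapped. Material, sequencing run and depth cannot be told apart here. Levels were not compared between genes, since no transcript lengths were used.

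The genes whose levels followed each subunit most closely were ranked by Pearson's r over the 18 RNA libraries, among 12169 genes and with each material centred on its own mean. These libraries share material, lane and genotype, so the values are a description. Gabra5 was most like Neurod6 (r = 0.951) and Lrrc4c (r = 0.951), which encodes a netrin-G ligand at synapses. Gabra4 was most like Slc30a4 (r = 0.972) and Bcap29 (r = 0.959), and Gabrb1 most like Nfib (r = 0.943) and Ankrd29 (r = 0.935). Gabrd was most like Ptprn (r = 0.919) and Creld1 (r = 0.895). Among the 2 genes most like each of the others were Cnr1 (r = 0.898), the cannabinoid receptor gene, for Gabra2, Gpr137c (r = 0.890) for Gabra3 and Nefl (r = 0.830), a neurofilament gene, for Gabrb2.

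The other genes of GABA signalling were given by a list of 46, of which neuron RNA tested 41 and whole CA RNA 40. In neuron RNA 0 of 41 were called by edgeR, and DESeq2 called 1, Mdga1. An unadjusted edgeR p under 0.05 was found for 7, and the share of all genes under that p was not counted. In whole CA RNA 2 were called, both lower: Mdga1, which binds neuroligin-2 and limits inhibitory synapse assembly, and Slitrk3, an adhesion protein of inhibitory synapses. That is 2 of 40 genes, near the 4.17% called among all genes in whole CA RNA. Mdga1 was at 54.0 to 83.1 CPM in cKO libraries and 99.0 to 117 CPM in controls (log2 fold change -0.57, SE 0.08, adjusted p = 0.000226). Slitrk3 was at 99.4 to 110 CPM and 122 to 137 CPM (log2 fold change -0.29, SE 0.05, adjusted p = 0.00163), and it was not called within either lane (adjusted p of 0.141 and 0.0893). Neither gene's groups overlapped, a separation that 1.93% of all genes showed in this direction. Their neuron log2 fold changes were -0.60 and -0.25, with adjusted p of 0.127 and 0.156. The 10 genes of anchoring and assembly had median log2 fold changes of -0.10 (neuron) and -0.03 (whole CA). None of the genes for GABA synthesis, uptake, trafficking, GABA-B receptors or the chloride gradient was called in either material by edgeR. In neuron RNA the anchoring list summed to 2142 to 2227 CPM (cKO) and 2321 to 2508 CPM (control). The GABA-B list summed to 982 to 1061 CPM and 1096 to 1166 CPM, and the whole list to 5992 to 6305 CPM and 6360 to 6671 CPM. None of these pairs overlapped, but the whole list contains both lists before it. Among single genes in neuron RNA, 12.4% separated in this direction, and how often sums of other lists separate was not counted. The whole list's median log2 fold change in neuron RNA was -0.0003, and 21 of 41 genes had negative values. The sums of the other lists overlapped in neuron RNA, as did all sums in whole CA RNA.

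H3K4me3 was shorter at the starts of these genes. Peaks were merged over the libraries into regions, kept with a peak in at least 3, and each library's covered length within a region was compared on the log2 scale after adding 100 bp. The members had 8 regions within 1 kb of an annotated start. No strand was at hand for Gabrd, so both ends of its span were taken as possible starts. Its H3K4me3 region lay at the upper end, while H3K27ac and H3K4me1 also had a region at the lower end. Covered length was called shorter in 7 of these and longer in 0 (limma, adjusted p under 0.05 over 44667 regions). As background, 1.44% of all regions were called longer, and 9.36% of all regions and 16.7% of the 13207 regions at RefSeq starts were called shorter. All 8 had groups that did not overlap, as 15.2% of all regions did in this direction. The share of separated regions among those at RefSeq starts was not counted. The median log2 difference was -0.40. The peak lists were called per library against 1 input per genotype; a difference between the inputs and a genotype effect cannot be told apart.

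The alpha2 and alpha5 genes lost most covered length. At the inner of the 2 annotated starts of Gabra5, the region chr7:57505220-57511072 covered 5497, 5221, 5542 and 5552 bp in the controls and 2527, 2873, 2705 and 3182 bp in the cKO libraries. It fell by 48.3% (log2 difference -0.93, SE 0.08, n = 4 and 4, limma, adjusted p = 0.000356). The region at the outer start of Gabra5, chr7:57589770-57594953, covered 4503 to 5068 bp in controls and 2695 to 2936 bp in cKO libraries (-0.73, SE 0.06, adjusted p = 0.000310). At Gabra2, chr5:71091338-71097201, the controls covered 5634, 5785, 5797 and 5613 bp and the cKO libraries 2711, 3200, 2831 and 3330 bp (-0.90, SE 0.08, adjusted p = 0.000381). In each of these the longest cKO value lay far below the shortest control value.

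Smaller differences were found at the other starts. The region shared by Gabra4 and the outer start of Gabrb1, chr5:71655326-71658804, covered 3067 to 3447 bp in controls and 2240 to 2403 bp in cKO libraries (-0.48, SE 0.06, limma, adjusted p = 0.00206). The inner start of Gabrb1, chr5:71699286-71702775, covered 3263 to 3394 bp and 2444 to 2870 bp (-0.32, SE 0.06, adjusted p = 0.0174). Gabrb2, chr11:42418848-42423897, covered 4633 to 4977 bp and 3694 to 4083 bp (-0.29, SE 0.06, adjusted p = 0.0186). Gabrd, chr4:155396565-155398863, covered 2118 to 2299 bp and 1731 to 1993 bp (-0.27, SE 0.06, adjusted p = 0.0392). This last call held only without cKO replicate 3 (adjusted p = 0.0255) among the 8 left-out libraries, and was lost at 0.0526 to 0.0926 in the other 7. Gabra3, chrX:72655044-72656790, covered 1607 to 1701 bp and 1216 to 1505 bp and was not called (-0.24, SE 0.08, adjusted p = 0.0953), although its groups did not overlap.

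Replicates 1 to 3 and replicate 4 of H3K4me3 were sequenced in different lanes, per the file names. Every one of the 8 regions was shorter in the cKO libraries in both lanes. The Gabra5 region had log2 differences of -0.98 in replicates 1 to 3 and -0.78 in replicate 4, and Gabra2 had -0.96 and -0.74. With replicates 1 to 3 alone 4 of the 8 regions were called, those of Gabra2, both Gabra5 starts and the shared Gabra4 and Gabrb1 region.

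**Figure D3:**
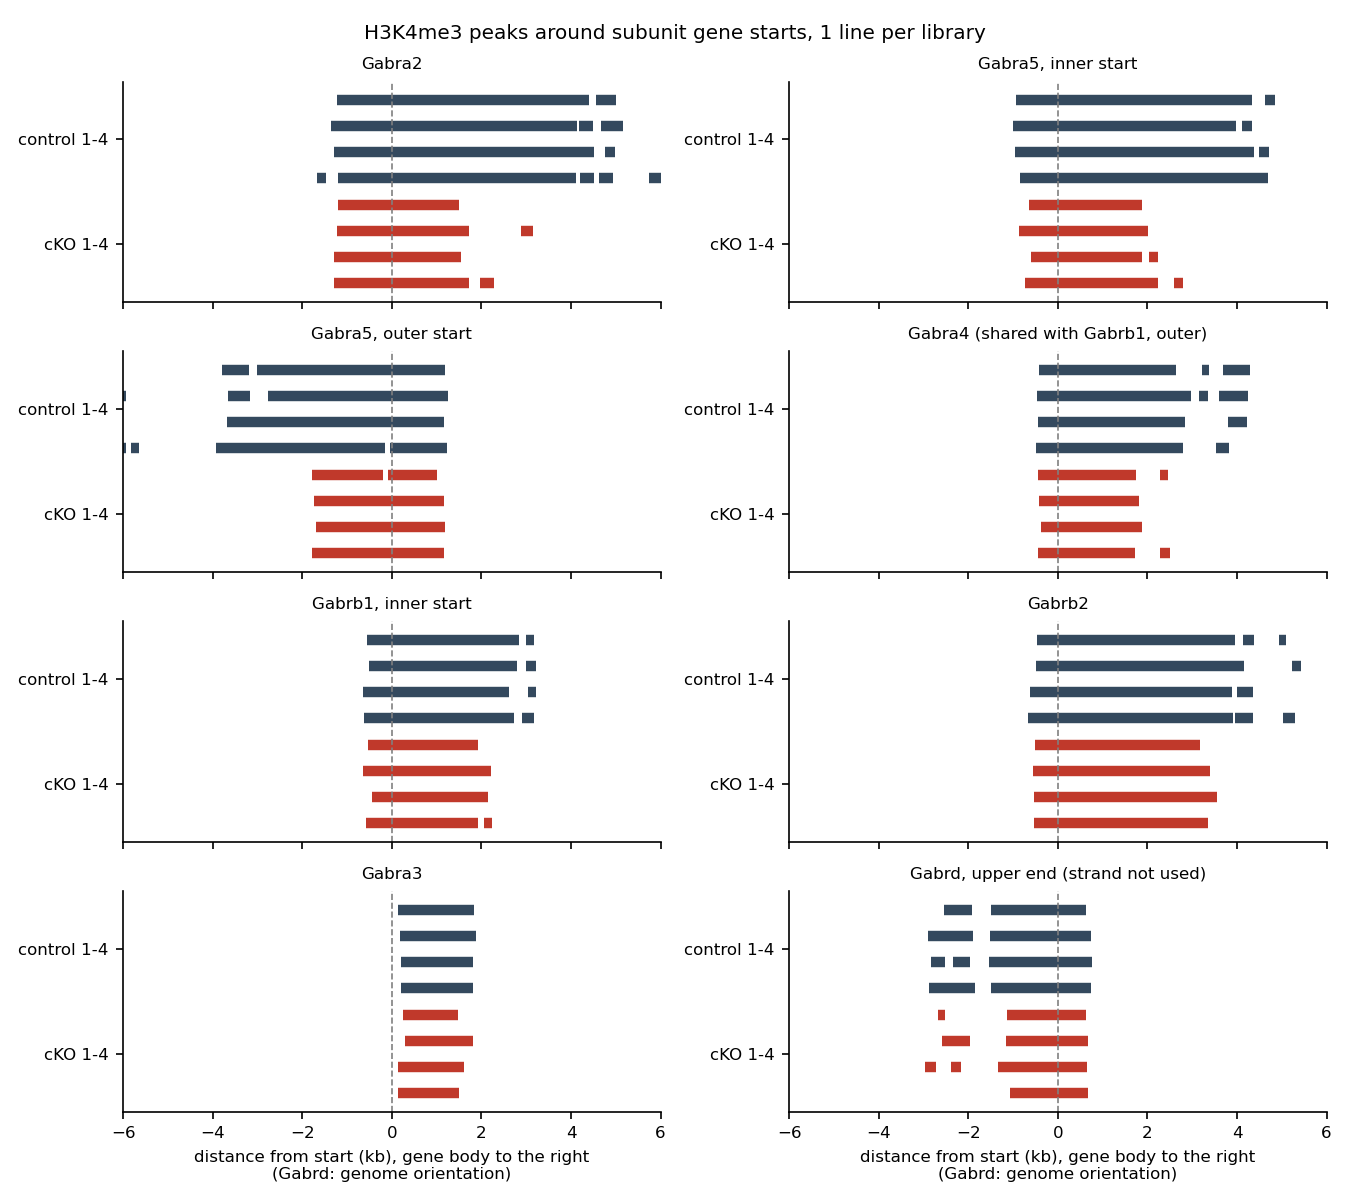
H3K4me3 peaks of each library around 8 starts, with distance from the start on the x axis (kb, gene body to the right, Gabrd in genome orientation) and 1 line per library, controls above cKO. At Gabra2 and the inner Gabra5 start the peak over the start reached at least 3982 bp into the gene in every control and at most 2238 bp in any cKO library.

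The length was lost mainly on the gene-body side of the start at several members, a measure chosen after the peaks were seen and given as a description. At Gabra2 the peak reached 4099 to 4511 bp into the gene in controls and 1498 to 1725 bp in cKO libraries, while its other edge lay at -1352 to -1208 bp and -1287 to -1212 bp, negative being away from the gene body. At the inner Gabra5 start the reach was 3982 to 4698 bp and 1873 to 2238 bp, and at Gabra4 2646 to 2982 bp and 1731 to 1880 bp. At the inner Gabrb1 start it was 2616 to 2843 bp and 1916 to 2223 bp. The gene-body edge was nearer in every cKO library than in every control at these starts and at those of Gabrb2 and Gabra3, as at 27.8% of 16166 RefSeq starts with a peak. The other edge separated in this way at 9.30% of starts and overlapped at these 6 genes' starts, except that the outer Gabrb1 start shares its region with Gabra4 in reverse. At the outer Gabra5 start the lost length lay on the side away from the gene body, as the plot of peaks shows.

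The other marks gave no called region. H3K9ac had 10 regions at members, 0 called by limma (2.72% of all regions were called), 4 with an unadjusted p under 0.05, and 4 with non-overlapping shorter cKO groups where 5.66% of all regions had them. Those were at Gabra5 (-0.89, SE 0.22), Gabra2 (-0.51, SE 0.17), the inner Gabrb1 start (-0.46, SE 0.16) and Gabrb2 (-0.38, SE 0.13). The Gabra5 region covered 3546 to 3903 bp in controls and 1411 to 2567 bp in cKO libraries. H3K27ac had 10 regions, 0 called (2.60% of all were called), 2 with an unadjusted p under 0.05, and 2 with separated shorter groups where 5.70% had them: Gabra5 (-0.36, SE 0.14) and Gabra3 (-0.46, SE 0.17). Control replicate 1 of H3K27ac stood apart, with 197207 peaks against 146411 and 169046 in the other controls, and its file name carries another replicate number than its label. At Gabra2 it covered 2486 bp, against 5165 and 5666 bp in the other controls and 3888 to 4364 bp in the cKO libraries, and with it the log2 difference was -0.02 (SE 0.30). Without it the difference was -0.38 (SE 0.13, limma, adjusted p = 0.452) and the groups did not overlap. Of the 10 regions 0 were then called, 2 had an unadjusted p under 0.05, and 4 (Gabra2, Gabra5, Gabra3 and the inner Gabrb1 start) had separated shorter groups, where 8.14% of all regions had them. H3K4me1 had 11 regions, 0 called (1.49% of all were called), and 3 with an unadjusted p under 0.05. With H3K4me1, 1 region separated shorter (Gabrd, -0.40, SE 0.15), as 3.22% did, and 1 longer (Gabra2, 0.47, SE 0.17), as 6.10% did.

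**Figure D4:**
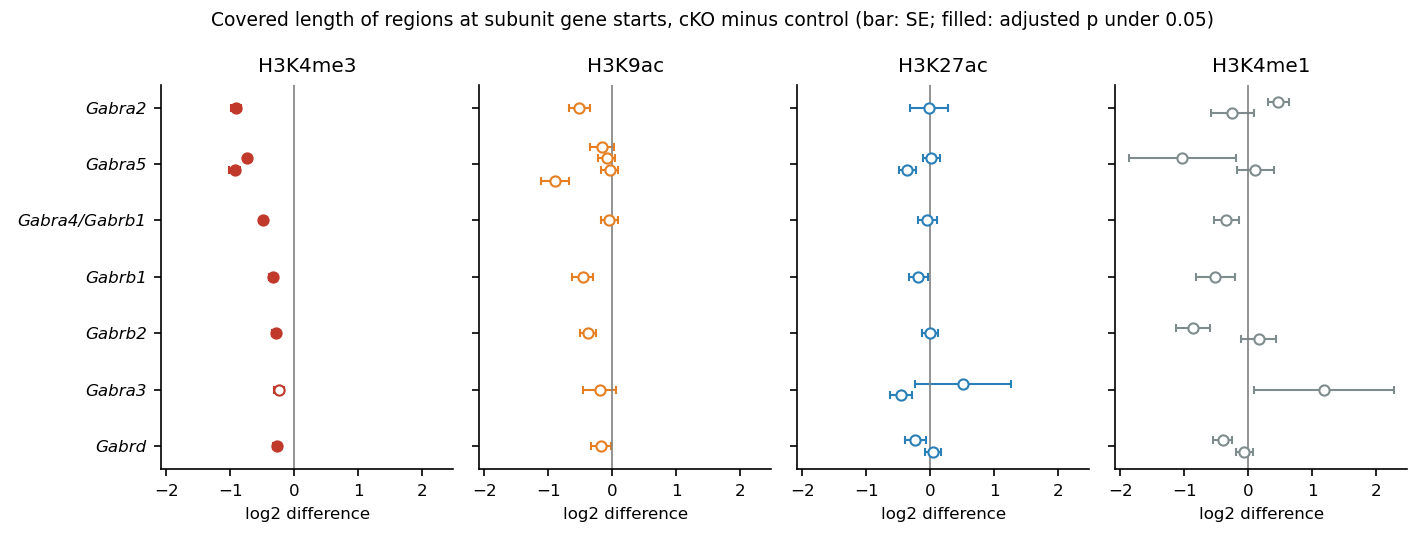
Log2 difference of covered length (x axis, cKO minus control, bar: SE) for each region at the subunit gene starts, by mark, with filled points at an adjusted p under 0.05. For Gabrd, regions at either end of its span are drawn. H3K4me3 lies below 0 in all 8 regions, with 7 filled, while the other 3 marks have no filled point.

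RNA and H3K4me3 were set beside each other per gene, as a description. Gabra5 had an H3K4me3 region that fell by 48.3%, and was the member whose RNA was called lower in both materials. The Gabra2 region fell by 47.1%, with RNA log2 fold changes of 0.04 (neuron, SE 0.16) and -0.53 (whole CA, SE 0.16), neither called. Gabra4, Gabrb1, Gabrb2 and Gabrd also had regions called shorter and no called RNA change. The ChIP and neuron RNA libraries are separate samples, so no test joined them.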

How the data were processed

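RNA was sequenced in 18 libraries and 4 histone marks in 30. Per the labels' protocols, RNA was isolated with Trizol and ChIP used sorted neuronal nuclei. The deposited RNA files held read counts per Ensembl gene ID; aligner, counter and strandedness are not given in the sources used here. Peaks were deposited with lengths in bp and -log10 q, called per library with MACS at a q cutoff of 0.1, per the file headers; the build was mm10, per the submitters' processing notes. Depth was 55.7 to 69.1 M reads (neuron RNA), 14.9 to 20.1 M (whole CA RNA) and 24.4 to 41.6 M tags (ChIP). Counts were tested with edgeR 4.0.16 (TMM, filterByExpr, Benjamini-Hochberg) and covered lengths with limma 3.58.1 in R 4.3.3; DESeq2 1.42.0 was an alternative, and scripts were tested on simulated data. CPM uses TMM-scaled library sizes. Gene starts and spans came from RefSeq tables on GRCm38.p6.

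The text names all 7 members, Setd1b, the called genes of a list of 46 other GABA genes and, of the 2 genes most like each member, those that are reported here; the rest are not reported here. A few others (Kctd12 and the marker genes named) were chosen after their values were seen. Members and lists were chosen with earlier results of these data known. Alternatives were other scaling, filters, DESeq2, left-out libraries, lanes, a replicate block and, for peaks, a stricter q, offset and distance.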

Additional observations from a re-analysis of the deposited data

Results flagged for a closer look

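Among 72 groups of 4 to 10 libraries examined for a single value far from the others, 5 were found, and chance gives about 5% of groups. The whole CA level of Gabra2 in control replicate 6 was lowest at 236 CPM, below the other controls at 336 to 380 CPM. The whole CA level of Gabra5 in control replicate 1 was lowest at 216 CPM. Without that library the Gabra5 log2 fold change was -0.39 (edgeR, adjusted p = 0.000167). The H3K4me3 region at the inner Gabra5 start was shortest among controls in replicate 2, at 5221 bp, and without it the log2 difference was -0.95. The H3K4me1 region at Gabra3 covered 442 bp in control replicate 1 and 0 bp in the other controls, which had no peak there. The H3K4me1 region at the inner Gabrb1 start was shortest among cKO libraries in replicate 3, at 1479 bp.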

How the results depend on the processing

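Whether the replicate numbers pair the libraries could not be settled from so few libraries. Correlations of same-numbered libraries' deviations were -0.10, 0.38 and -0.17 in neuron RNA, -0.07 to 0.25 in whole CA RNA and -0.04 to 0.05 in ChIP. Of the cKO libraries, 1 of 3 in neuron RNA and 2 of 6 in whole CA RNA correlated best with the control of their own number. With a replicate block, neuron RNA had 327 genes called and 0 members lower, whole CA RNA had 3 members lower (Gabra5, Gabra2 at -0.57, adjusted p = 0.00132, and Gabrb1 at -0.25, 0.0274, by edgeR) and 1 higher (Gabrd at 0.30, 0.0445), H3K4me3 had 2501 regions with 4 members' regions shorter, H3K27ac and H3K9ac had 0 regions and H3K4me1 had 680. In neuron RNA, 0 members were called lower with library sizes only or a mean count of at least 10, DESeq2 called 833 genes, and 1 pathway gene was called with no filter or DESeq2. In whole CA RNA, 2 members were called lower with no filter, with lane as a covariate or in replicates 4 to 6 (224 genes, 1 pathway gene), and 0 in replicates 1 to 3 (207 genes). The interaction gave 69 genes with no filter and 67 with DESeq2. With replicates 1 to 3 of H3K4me3, 4 member regions were called shorter. At -log10 q of 5 or more, H3K27ac had 1359 regions, H3K9ac 1418 (2 member regions shorter) and H3K4me1 698. With a peak required in every library the counts were 81, 156 and 1114. An offset of 1000 bp gave 518 for H3K27ac and 712 for H3K9ac. Leaving out 1 library at a time gave 207 to 482 neuron genes, 0 to 1 neuron members lower, 0 to 1 neuron pathway genes, 1 to 2 whole CA members lower, 0 to 1 higher, 18 to 32 interaction genes, 1131 to 4090 H3K27ac regions, 440 to 3577 H3K9ac regions and 2263 to 3086 H3K4me1 regions. Causes were not tested. No called result changed sign under these alternatives. Those for the peak marks other than H3K4me3, and replicates 1 to 3 of H3K4me3, were chosen after seeing the data. Peak lists hold only peaks past the q cutoff, and how covered length varies with depth and input was not tested.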
